A study of Mus musculus with 12 samples.

Results

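Phenformin was compared with water in explants of lung metastases that overexpressed PGC-1alpha. The comparison used 6 of the 12 arrays of the series, chosen by their titles: 3 explant samples kept for 4 days in 100 µM phenformin and 3 kept for 4 days in distilled water. Each array measured 19505 genes with a symbol, and all of them were compared. The cells were NMuMG-ErbB2, a mouse mammary gland epithelial line carrying the ErbB2 oncogene, injected into the tail vein of mice and recovered from the lung as an explant labelled LMTV. Every group of the series carried ErbB2, and the line labelled VC served as the control for PGC-1alpha. The VC line was likewise kept in phenformin or water, with 3 samples each. The labels number the samples but do not say whether they came from separate mice or separate cultures, so each p-value reflects how far these samples scatter, and that scatter may be technical. The labels give neither the age or strain of the mice nor the promoter that drove PGC-1alpha.

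Phenformin is a biguanide related to metformin. It inhibits complex I of the mitochondrial respiratory chain, which lowers ATP supply, changes the balance of reduced and oxidised cofactors and activates the AMP-activated kinase AMPK. Mitochondrial inhibition also activates the integrated stress response, in which phosphorylated eIF2alpha slows translation and raises the transcription factor ATF4 and its targets in amino acid metabolism. PGC-1alpha is a transcriptional coactivator of genes of mitochondrial biogenesis and respiration.

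A level below is the deposited value of a gene's probe set, read as log2. A difference is the mean of the phenformin arrays minus the mean of the water arrays, so that 1 on the log2 scale is a doubling, and ± is its standard error with n = 3 per group. Called genes had an adjusted p under 0.05 in limma's moderated test with Benjamini-Hochberg adjustment over all 19505 genes. A gene was above background in an array where it exceeded the 95th percentile of that array's negative control probe sets. A fold is given as "at least" where the lower group was not above background in any array: the brighter group's mean was then set against the other group's mean, in which each array counted with its percentile or the gene's level, whichever was higher. No fold is given where both groups lay within background or this bound was under 1.

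The overexpressed gene did not pass the test. Ppargc1a, which encodes PGC-1alpha, read 8.11, 8.06 and 8.26 in the water arrays and 8.18, 8.20 and 8.37 in the phenformin arrays (difference 0.11 ± 0.11, adjusted p = 0.793). Its mean was 7.11 ± 0.09 (SD, n = 3) in the control line in water and 7.12 ± 0.16 in the control line in phenformin, below the PGC-1alpha arrays. The epithelial genes Krt8, Krt18 and Cdh1, which encode the keratins of simple epithelia and E-cadherin, were bright in all 6 arrays: Krt8 read from 12.33 to 12.88, Krt18 from 12.66 to 12.94 and Cdh1 from 11.96 to 12.32. Epcam, another epithelial marker, was not above background in any of them, with levels from 5.04 to 5.6. Of 10 measured genes of mammary epithelial identity, 5 were never above background in these arrays. The same held for 23 of 32 epithelial junction genes and 10 of 15 keratins. Vim, the mesenchymal intermediate filament vimentin, read from 13.16 to 13.29.

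The 6 arrays correlated at r = 0.990 to 0.996 across genes, which are not independent replicates, and the median gene lay between 6.84 and 6.86 in each. Water replicate 3 stood nearer to the phenformin arrays than the other water arrays did. On the first principal component, which held 35.8% of the variance, it scored -0.30, while the other water arrays scored -24.2 and -15.5 and each phenformin array 12.2 or more. The median of the negative control probe sets was 4.88 to 4.99 in the water arrays and 5.09 to 5.15 in the phenformin arrays. These ranges did not overlap, and the exact two-sided permutation test over the 6 arrays gave p = 0.1, the smallest that 3 against 3 allows. The gap between positive and negative controls was 4.11 to 4.24 in water and 3.92 to 4.08 in phenformin, so that gap and treatment cannot be told apart. With the gap as a covariate in the fit, 1 gene was called, Cth, and 1344 had an unadjusted p under 0.05.

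Between phenformin and water, 38 genes were called in the PGC-1alpha explants, of which 26 rose and 12 fell. The strongest rise was that of Cth, the enzyme that makes cysteine from cystathionine, and the strongest falls were those of Dll4, a ligand of Notch receptors, and Txnip, a glucose-responsive arrestin. Genes of cholesterol synthesis and its control (Cyp51, Insig1) and of matrix and mesenchyme (Fn1, Ccbe1, Nes) were among those that fell. Besides Cth, the genes with the largest rises that were above background in phenformin were Cdsn, Reep6 and Bmp4. The 38 calls are 0.195% of all genes, the 26 rises 0.133% and the 12 falls 0.0615%. An unadjusted p under 0.05 was reached by 2219 genes, 1105 higher and 1114 lower. The median difference over all genes was -0.02 and the median size of a difference 0.12. The called rises had a median of 0.81 and the called falls one of -0.81, and 6 of the 38 differed by more than 1. The smallest called difference was 0.59, that of Sult2b1.

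In all 38 called genes the 3 phenformin arrays lay on 1 side of the 3 water arrays. Over all genes, 8.93% had the phenformin arrays all above the water arrays and 10.7% had them all below, and these shares are the background for the counts of separated members given below. Called genes spanned mean levels from 5.04 to 10.60.

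**Figure D1:**
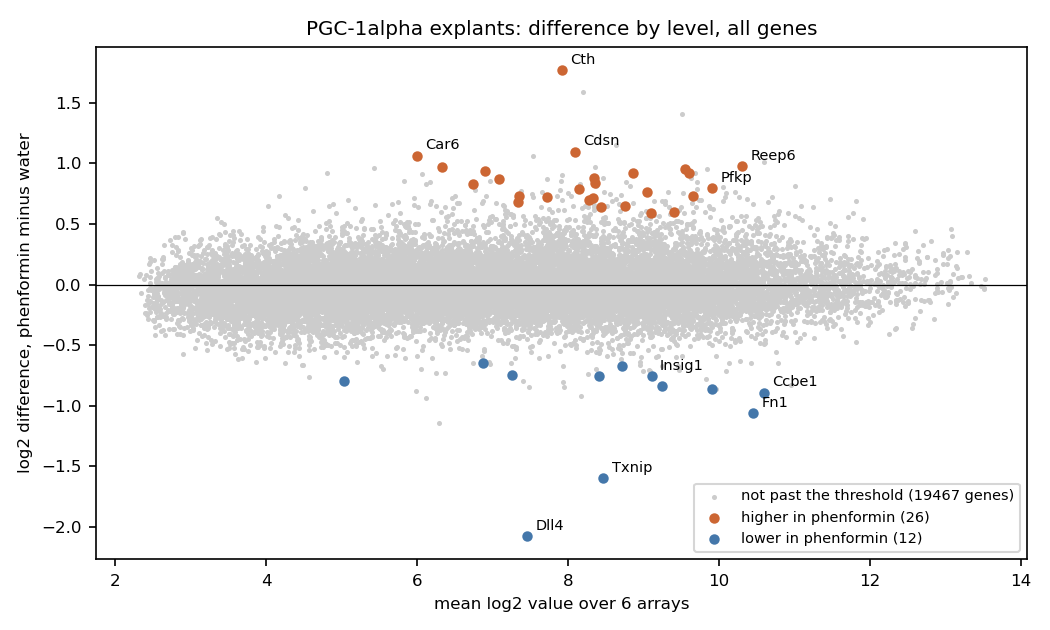
Each point is 1 gene of the PGC-1alpha explants, with its mean log2 value over the 6 arrays on the horizontal axis and its log2 difference, phenformin minus water, on the vertical axis. Orange points are the 26 genes that rose, blue points the 12 that fell and grey points those not past the threshold; Cth stands highest at 1.77 and Dll4 lowest at -2.07.

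The number of calls depended on single arrays. Without water replicate 3, 77 genes were called, 61 higher and 16 lower, and 31 of the 38 were among them. Without water replicate 1 there were 14 calls, and without water replicate 2 there were 12. Leaving out phenformin replicate 1, 2 or 3 left 3, 5 and 11 calls. Of the 38 genes, 3 passed in each of these 6 fits: Cth, Dll4 and Txnip. Of the 36 called genes named by rule, 17 passed in 1 of the 6 fits and 7 in 0: Vldlr, Cyp39a1, Dgka, Gstm2, Mcpt8, Plau and Gm5127. Of the 26 risen genes, water replicate 3 held the highest water value in 17 and water replicate 1 the lowest in 21. When the spread was allowed to follow the level and outlying genes were down-weighted (limma's trend and robust options), 250 genes were called, with all 38 among them: 164 rose, or 0.841% of all genes, and 86 fell, or 0.441%.

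Genes of the integrated stress response moved unevenly, with Cth far ahead of the rest. Cth read 7.14, 6.97 and 7.0 in the water arrays and 8.93, 8.85 and 8.63 in the phenformin arrays. Even the lowest phenformin array lay well over the highest water array. The difference was 1.77 ± 0.11 (adjusted p = 6.17e-06), at least 1.97-fold, since no water array was above background. Its adjusted p was the smallest of all genes.

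Gpt2, the mitochondrial alanine aminotransferase, read 7.59, 7.98 and 7.71 in water and 8.69, 8.43 and 8.53 in phenformin. It rose by 0.79 ± 0.13 (adjusted p = 0.0301) and passed in 2 of the 6 fits that leave out an array. Only 1 of its water arrays was above background, so its fold of 1.73 is approximate. Vldlr, the receptor for very low density lipoprotein, read 8.09, 8.29 and 7.97 against 8.80, 8.71 and 8.76. It rose 1.56-fold (0.64 ± 0.11, adjusted p = 0.0397), and its call was lost in each of those 6 fits. The groups did not overlap in either gene.

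Of 23 measured targets of the integrated stress response, 3 rose, 0 fell and 20 did not pass, with a median difference of 0.14. The phenformin arrays lay all above the water arrays in 10 of the 23 (43.5%, against 8.93% of all genes) and all below in 1. Ddit3, the stress factor CHOP, differed by 0.48 ± 0.14 (adjusted p = 0.218) and Trib3, a pseudokinase of this response, by 0.43 ± 0.17 (adjusted p = 0.354). Ppp1r15a, the phosphatase subunit that reverses eIF2alpha phosphorylation, differed by 0.52 ± 0.12 at a level within background (adjusted p = 0.106). Atf4 itself read 11.17, 11.29 and 11.19 in water and 11.42, 11.32 and 11.32 in phenformin, a difference of 0.14 ± 0.10 (adjusted p = 0.64).

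The target that lay all below was Cbs, which makes the cystathionine that Cth cleaves. It read 7.40, 7.88 and 7.54 in water and 7.05, 6.96 and 6.99 in phenformin (-0.61 ± 0.14, adjusted p = 0.109), and it was above background in 1 water array only. Both enzymes of the transsulfuration path thus stood on opposite sides, with only that of Cth past the threshold. Sesn2, Nupr1 and Fgf21, further targets of the response, had differences of -0.04, -0.12 and -0.13, and Fgf21 was not above background in any array.

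The genes of amino acid supply had small differences. Among 19 measured enzymes of amino acid synthesis and one-carbon metabolism, Gpt2 was the single call. Asns, asparagine synthetase, differed by 0.39 ± 0.10 (adjusted p = 0.139) and Psat1, of serine synthesis, by 0.29 ± 0.09 (adjusted p = 0.236), while Phgdh, the first enzyme of that path, had -0.13 ± 0.13. Of 20 amino acid transporters 0 were called and 5 lay all above, among them Slc7a11, the cystine importer (0.35 ± 0.13, adjusted p = 0.337). Of 18 cytosolic tRNA synthetases 0 were called and 7 lay all above (38.9%), with a median of 0.09. Of 21 genes of the unfolded protein response of the endoplasmic reticulum 0 were called, and the median was 0.07.

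The promoters of these targets were read for the composite element TGATGNAA, which ATF4 binds together with C/EBP proteins, and they are shown because most of the promoters that hold it belong to targets that did not pass. The element was searched on both strands in the 250 bases before each annotated start of RefSeq's GRCm38.p6 table. It stood in 7 of 26 promoters of the list (26.9%) and in 2.94% of the 19143 promoters of all array genes. Each sequence below is written 5′ to 3′ on the gene's strand, with the element in capitals. The windows were chr19:27216790-27216857 (plus strand) for Vldlr, chr2:119351019-119351086 (plus strand) for Chac1, chr1:191183406-191183473 (minus strand) for Atf3, chr12:85599353-85599415 (plus strand) for Jdp2, chr8:94386287-94386354 (plus strand) for Herpud1, chr7:126625543-126625610 (minus strand) for Nupr1 and chr7:45615592-45615659 (minus strand) for Fgf21.
Vldlr: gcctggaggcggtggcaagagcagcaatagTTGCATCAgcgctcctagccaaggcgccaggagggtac
Chac1: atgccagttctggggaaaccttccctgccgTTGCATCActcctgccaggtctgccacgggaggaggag
Atf3: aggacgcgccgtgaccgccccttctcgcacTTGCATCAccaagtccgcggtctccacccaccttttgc
Jdp2: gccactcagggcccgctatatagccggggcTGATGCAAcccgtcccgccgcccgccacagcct
Herpud1: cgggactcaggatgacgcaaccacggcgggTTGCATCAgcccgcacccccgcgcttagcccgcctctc
Nupr1: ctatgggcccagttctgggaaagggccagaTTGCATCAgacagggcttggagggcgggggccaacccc
Fgf21: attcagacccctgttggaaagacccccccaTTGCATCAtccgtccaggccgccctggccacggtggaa
Vldlr rose. Chac1, a glutathione-degrading enzyme (0.38 ± 0.16), Jdp2 (0.16 ± 0.12), Atf3 (0.12 ± 0.12) and Herpud1 (0.07 ± 0.12) did not pass, and neither did Nupr1 and Fgf21. Among the 29 promoters of genes that rose, 1 held the element, that of Vldlr (3.45%, against 2.94% of all promoters). These 29 belong to 18 of the 26 risen genes. Cth had no promoter among those searched, so its promoter was not read for the element.

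**Figure D2:**
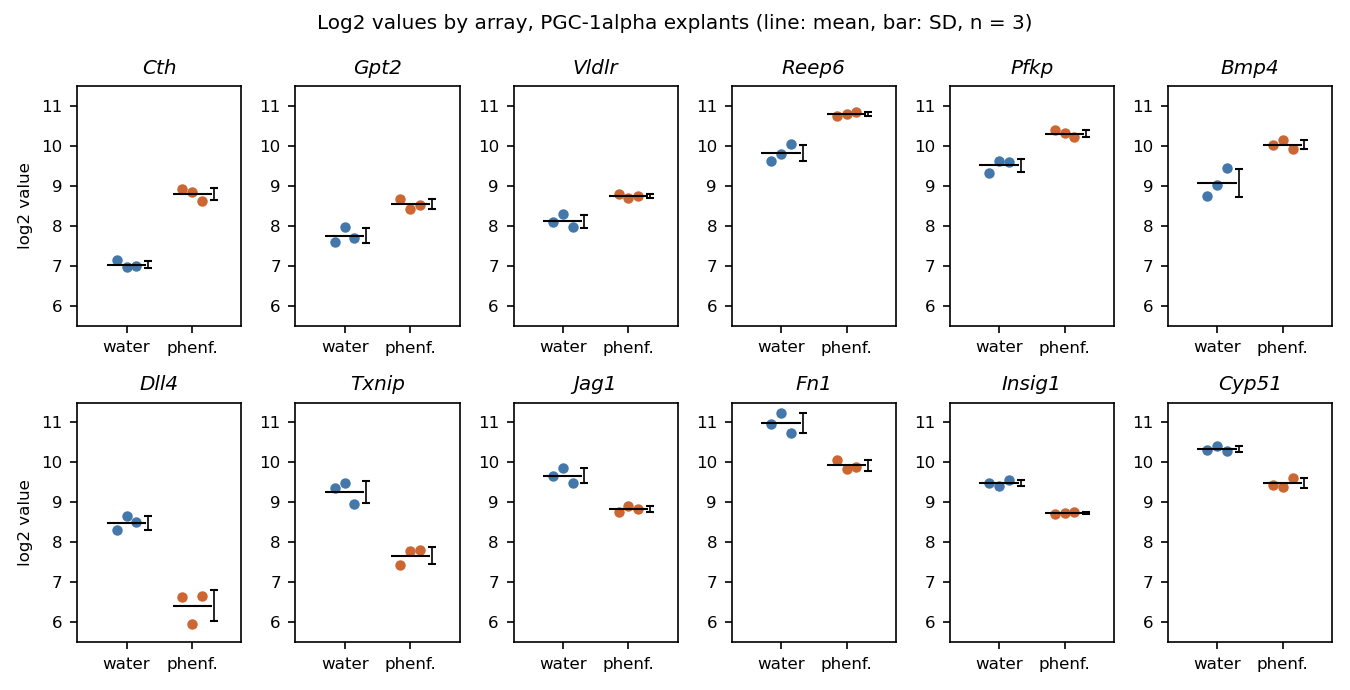
Log2 values of 12 genes in the 3 water arrays (blue) and 3 phenformin arrays (orange) of the PGC-1alpha explants, with the group mean as a line and its SD (n = 3) as a bar. The top row shows 6 genes that rose, from Cth to Bmp4, and the lower row 6 that fell, from Dll4 to Cyp51; the groups do not overlap in any panel.

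Genes of cholesterol synthesis were lower in phenformin almost throughout the pathway, and 1 enzyme and 1 regulator passed the test. These genes are controlled together by SREBP2, which INSIG proteins hold in the endoplasmic reticulum when sterols are plentiful. Cyp51, lanosterol demethylase, read 10.31, 10.41 and 10.29 in water and 9.45, 9.38 and 9.61 in phenformin. All phenformin arrays lay below all water arrays, and Cyp51 fell by 0.86 ± 0.13 on the log2 scale (1.81-fold, adjusted p = 0.0176, passing in 2 of 6 fits without 1 array).

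Of the 16 measured enzymes of sterol synthesis, 0 rose, 1 fell and 15 did not pass. All 16 had a negative difference, with a median of -0.43, and in 14 of them (87.5%) the phenformin arrays all lay below the water arrays. Idi1, which isomerises isopentenyl diphosphate, differed by -0.71 ± 0.18 (adjusted p = 0.138), and Sqle, squalene epoxidase, by -0.67 ± 0.22 (adjusted p = 0.247). Hmgcs1, the synthase at the head of the pathway, read 10.73, 10.99 and 10.86 in water and 10.39, 10.40 and 10.34 in phenformin (-0.49 ± 0.11, adjusted p = 0.111). Mvk, mevalonate kinase, had the smallest difference, -0.06 ± 0.12. In the fit whose spread follows the level, 7 of the 16 fell: Hmgcs1, Idi1, Lss, Cyp51, Nsdhl, Hsd17b7 and Sc5d. The mean level of the 16 was 9.63, 9.74 and 9.71 in the water arrays and 9.25, 9.26 and 9.27 in the phenformin arrays. The control line had a median of -0.36 for the same enzymes.

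Insig1, which retains the SREBP escort in the endoplasmic reticulum, read 9.49, 9.40 and 9.57 in water and 8.71, 8.73 and 8.76 in phenformin. The 3 phenformin values lay close together and all below the water values, and Insig1 fell by 0.75 ± 0.10 (1.69-fold, adjusted p = 0.00674, passing in 4 of 6 fits without 1 array). It was the only call among 13 measured genes of sterol sensing and uptake, whose median was -0.15. Scap, the SREBP escort itself, differed by -0.41 (adjusted p = 0.203) and Srebf2, the gene of SREBP2, by -0.17 ± 0.10 (adjusted p = 0.57).

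The sterol element TCACNCCAC stood in 1 of the 16 promoters of the enzymes, that of Hmgcs1, and in 1.03% of all promoters. The Insig1 promoter held none within the 250 bases searched, but held the E-box CACGTG. Both are shown with the matched letters in capitals, the first at chr13:119690184-119690252 on the plus strand and the second at chr5:28071281-28071346 on the plus strand.
Hmgcs1: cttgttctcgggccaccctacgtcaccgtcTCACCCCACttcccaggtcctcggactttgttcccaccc
Insig1: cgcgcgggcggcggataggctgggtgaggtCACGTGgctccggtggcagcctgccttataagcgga

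Genes of fatty acid synthesis had mostly negative differences of smaller size, and 0 of its 19 measured genes were called. In 11 (57.9%) the phenformin arrays lay all below the water arrays, in 0 all above, and the median was -0.19. Aacs, which activates acetoacetate for lipid synthesis, differed by -0.45 ± 0.14 (adjusted p = 0.217), Fads2, a desaturase, by -0.42 ± 0.10 (adjusted p = 0.106) and Elovl6, an elongase, by -0.40 ± 0.11 (adjusted p = 0.172). Fasn, fatty acid synthase, had -0.29 ± 0.14 with overlapping groups. Fatty acid oxidation had 0 calls among 26 genes and a median of 0.02.

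**Figure D3:**
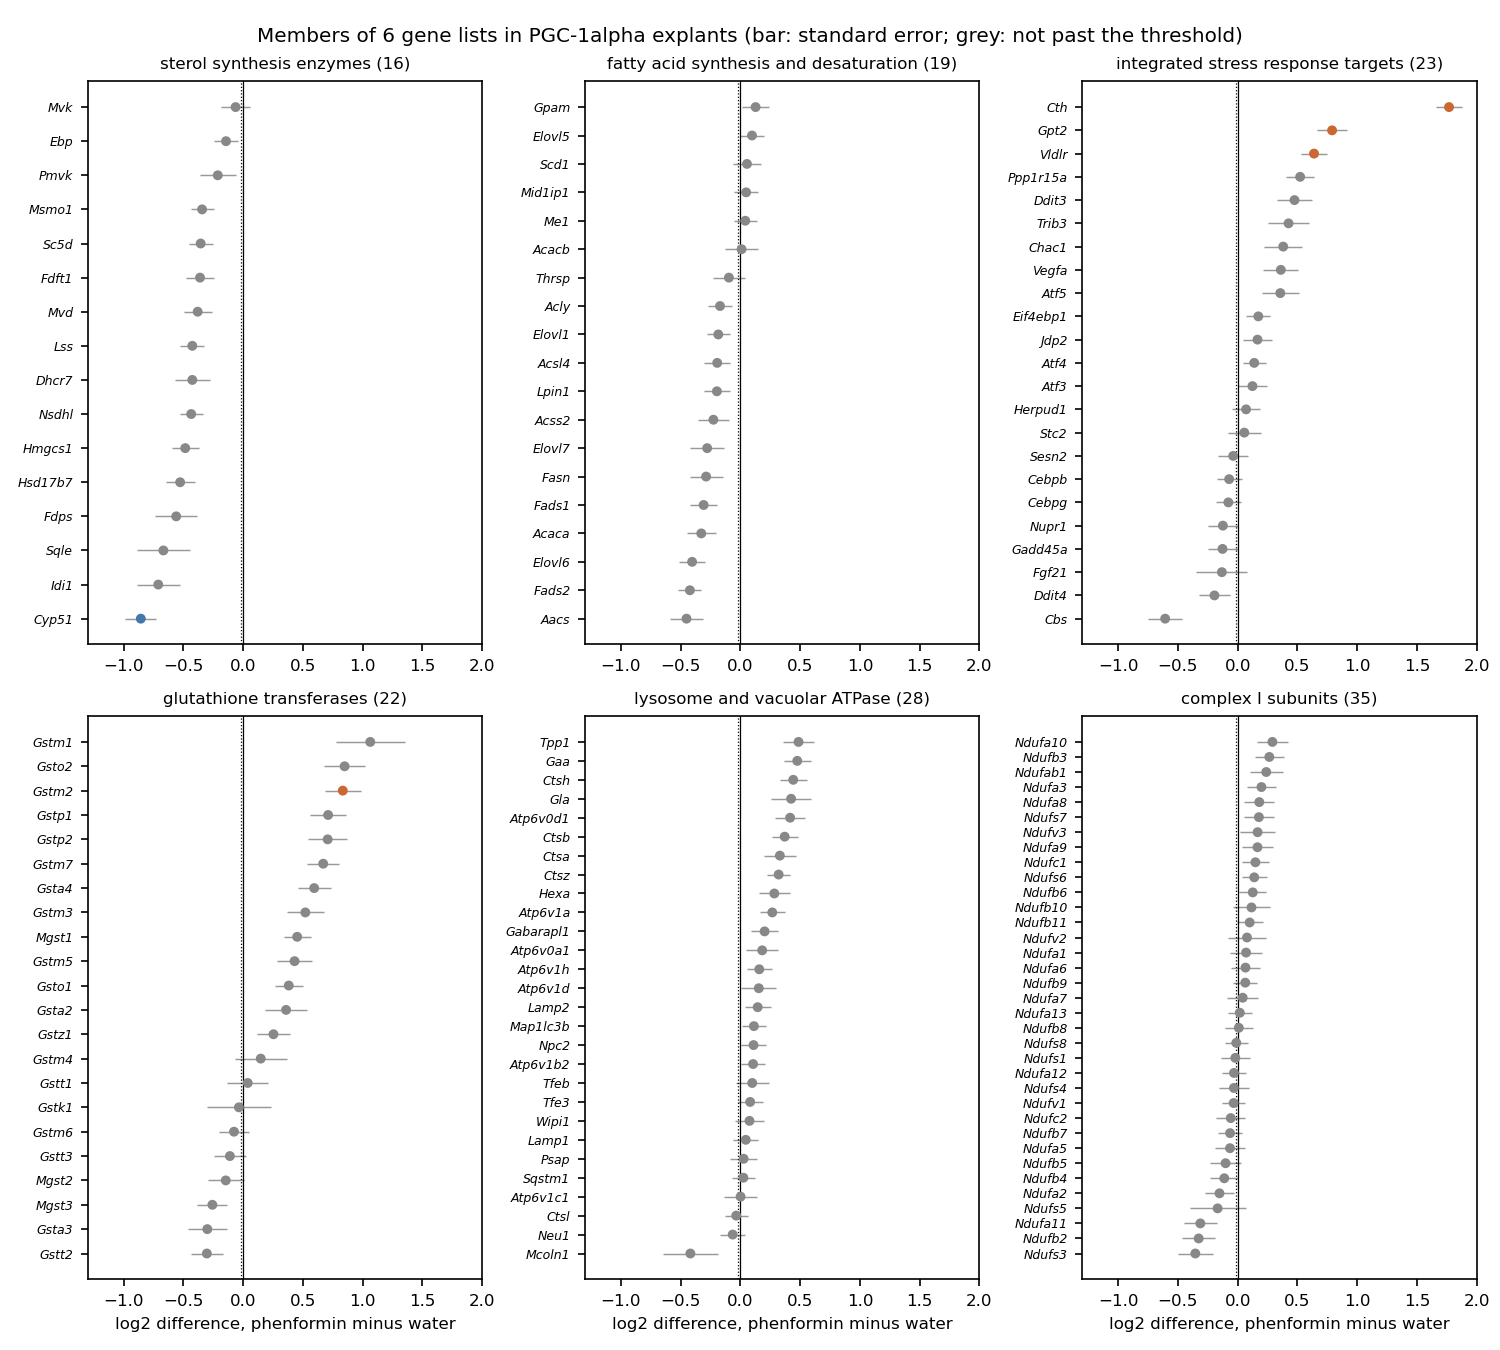
Log2 differences, phenformin minus water, of the measured members of 6 gene lists in the PGC-1alpha explants, each with its standard error; the dotted line marks the median of all genes at -0.02. Coloured points passed the threshold: Cyp51 among the sterol enzymes, Cth, Gpt2 and Vldlr among the stress response targets and Gstm2 among the glutathione transferases.

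Txnip, which binds thioredoxin and limits glucose uptake, and is induced by the glucose sensor MondoA, had the second largest fall. It read 9.37, 9.48 and 8.95 in water and 7.42, 7.79 and 7.80 in phenformin. It fell by 1.6 ± 0.16 (adjusted p = 0.000866), at least 2.50-fold, as no phenformin array was above background. Water replicate 3 was the lowest of the water arrays, and all 6 fits without 1 array kept the call. Arrdc4, a related arrestin under the same sensor, read 7.29, 7.67 and 7.64 against 6.91, 7.02 and 7.16, within background in all 6 arrays (-0.50 ± 0.13, adjusted p = 0.158). Of 12 measured genes of this glucose response, Txnip was the only call and the median was 0.05.

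Among genes of glycolysis 1 of 22 rose. Pfkp, the platelet form of phosphofructokinase, read 9.33, 9.62 and 9.59 in water and 10.39, 10.33 and 10.21 in phenformin. The groups were apart, and Pfkp rose 1.74-fold (0.80 ± 0.12, adjusted p = 0.0149, passing in 3 of 6 fits without 1 array). The other isoforms had differences on both sides, 0.42 for Pfkm (adjusted p = 0.16) and -0.27 for Pfkl (adjusted p = 0.368). Hk2, a hexokinase, differed by -0.41 ± 0.15 (adjusted p = 0.331) and Ldha, lactate dehydrogenase, by 0.08 ± 0.12, with overlapping groups. The list's median was 0.05.

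Dll4 and Jag1, both ligands of the Notch receptors, fell, and the receptors did not pass. Notch receptors are cleaved when a neighbouring cell presents a ligand, and the freed domain activates genes such as Hes1. Dll4 read 8.31, 8.67 and 8.50 in the water arrays and 6.63, 5.96 and 6.67 in the phenformin arrays. The phenformin arrays lay within background, with replicate 2 the lowest, and Dll4 fell by 2.07 ± 0.21 (adjusted p = 0.000866), at least 1.46-fold. Jag1 read 9.65, 9.87 and 9.49 in water and 8.76, 8.91 and 8.85 in phenformin. It fell by 0.83 ± 0.14 (1.78-fold, adjusted p = 0.0328) and passed in 1 of the 6 fits without 1 array. Among 17 measured ligands, receptors and modifiers these were the only calls, and the median was -0.01. The phenformin arrays lay all below in 5 of the 17 (29.4%, against 10.7% of all genes) and all above in 1. Of the 17, 10 were never above background. Notch1 read from 7.21 to 7.59 over the 6 arrays, within background, with a difference of 0.18 ± 0.16.

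Of 14 measured Notch targets 0 were called. Hes1 read 9.08, 8.98 and 9.10 in water and 8.59, 8.59 and 8.63 in phenformin. Its groups were apart, with a difference of -0.45 ± 0.10 (adjusted p = 0.0823). Hey1, another target, was within background with 0.09 ± 0.12. The core letters TGGGAA of the site of RBPJ, the factor that Notch activates, stood in 0 of 9 promoters of the fallen genes, in 34.5% of the 29 of the risen genes and in 21.0% of all promoters.

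Few matrix and mesenchymal genes were called, and those named here fell. Fn1, fibronectin, read 10.97, 11.24 and 10.73 in water and 10.07, 9.83 and 9.88 in phenformin. It fell by 1.06 ± 0.15 (2.08-fold, adjusted p = 0.0149), with 1 of 6 fits without 1 array keeping the call. Ccbe1, a secreted matrix protein needed to process the lymphatic growth factor VEGF-C, read 11.03, 11.06 and 11.04 against 10.02, 10.18 and 10.27. Its water values were nearly equal, and it fell by 0.89 ± 0.11 (1.85-fold, adjusted p = 0.00455), passing in 5 of those 6 fits.

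Nes, the intermediate filament nestin, read 8.61, 8.92 and 8.85 in water and 8.03, 8.04 and 8.05 in phenformin, and fell by 0.76 ± 0.11 (1.69-fold, adjusted p = 0.0176). Fn1 and Nes were the 2 calls among 19 mesenchymal genes, whose median was -0.01, and Ccbe1 the 1 call among 32 matrix glycoproteins, whose median was 0.01. The phenformin arrays lay all below in 21.1% of the mesenchymal genes and 21.9% of the matrix glycoproteins, against 10.7% of all genes. They lay all above in 5.26% and 3.12%, against 8.93%. The most negative difference of the matrix list, -0.94, was not called, and 22 of its 32 members were never above background. Snai2, a mesenchymal transcription factor, had 0.01 ± 0.13. Plau, the urokinase protease, read 7.49, 7.55 and 7.87 against 7.04, 6.77 and 6.87. It fell by 0.74 ± 0.14 (adjusted p = 0.0498), but was above background in 1 water array alone and its call was lost in each of the 6 fits. Of 22 collagens 0 were called, with a median of -0.11, and of 32 epithelial junction genes 0, with a median of 0.01. Among the collagens 5 lay all below (22.7%) and 0 all above, and 14 were never above background.

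Bmp4, a secreted ligand of the bone morphogenetic protein receptors, rose. It read 8.75, 9.03 and 9.45 in water and 10.03, 10.15 and 9.92 in phenformin, with water replicate 3 the nearest to the phenformin arrays. The difference was 0.96 ± 0.17 (1.94-fold, adjusted p = 0.0432), and it passed in 1 of the 6 fits without 1 array, that without water replicate 3. It was the 1 call among 24 genes of the pathway. The target genes Id1 and Id3 had differences of 0.18 (adjusted p = 0.55) and 0.36 (adjusted p = 0.197), both with the groups apart, and the list's median was -0.01.

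Glutathione transferases, which join glutathione to reactive compounds, were higher in 12 of 22 members with groups apart (54.5%), all below in 2, and 1 was called. Gstm2 rose by 0.83 ± 0.15 (adjusted p = 0.044), from 6.21, 6.35 and 6.40 to 7.09, 7.23 and 7.15, all within background, and its call was lost in each of the 6 fits without 1 array. Gstp1 read 10.93 to 11.41 in the water arrays and 11.91, 11.78 and 11.78 in phenformin (0.71 ± 0.15, adjusted p = 0.0904). Gsta4, which conjugates lipid aldehydes, differed by 0.59 ± 0.14 (adjusted p = 0.106). The list's median was 0.37, and 8 members rose in the fit whose spread follows the level. The Gstm genes, and Gstp1 with Gstp2, are close copies whose probes may share signal, so their values are not independent. Of the 22, 13 were never above background, and of 20 targets of NRF2, the main regulator of such enzymes, 0 were called, with a median of 0.04. The antioxidant element TGANNNNGC stood in 48.3% of the transferases' promoters and 35.4% of all promoters. It stood in 62.5% of the promoters of the sterol synthesis enzymes, whose differences were negative. The share was 37.9% for the risen genes and 22.2% for the fallen genes.

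**Figure D4:**
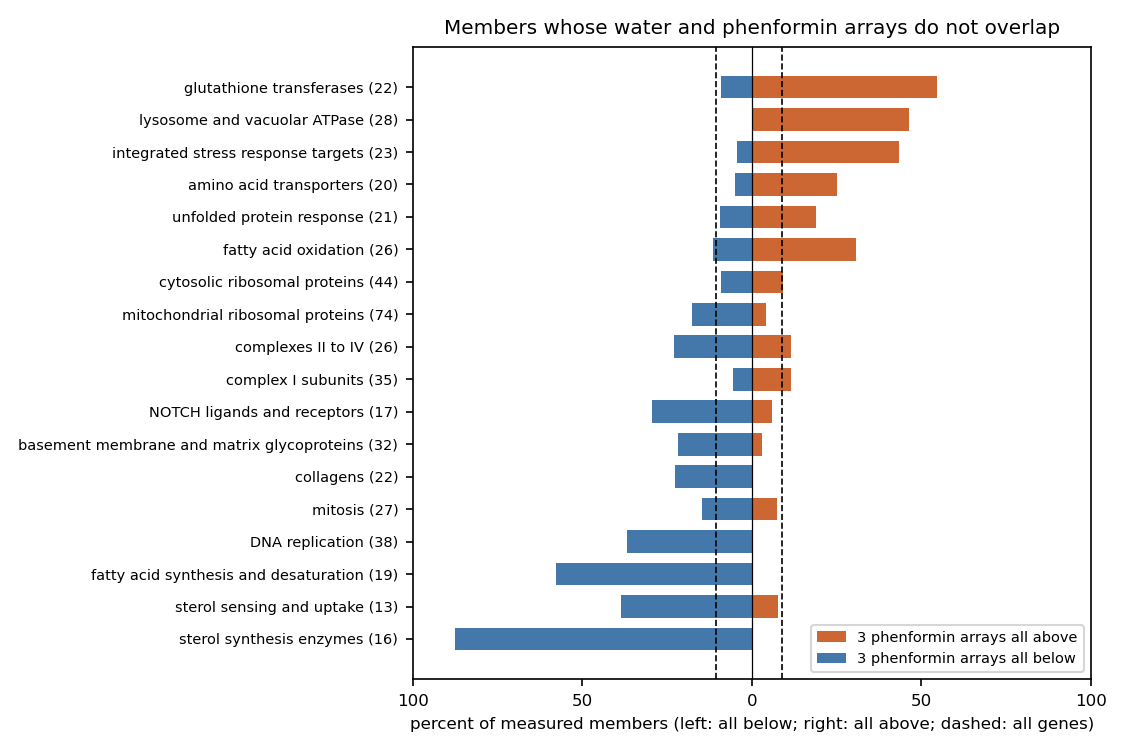
For 18 gene lists, the percent of measured members (number in brackets) whose 3 phenformin arrays lay all above the 3 water arrays (orange, to the right) or all below (blue, to the left). Dashed lines give the same shares over all genes, 8.93% and 10.7%; sterol synthesis reaches 87.5% to the left and glutathione transferases 54.5% to the right.

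Lysosomal genes stood slightly higher as well. Of 28 measured genes of the lysosome and its proton pump 0 were called, 13 lay all above (46.4%) and 0 all below, with a median of 0.15. Gaa, acid glucosidase, read 10.12, 10.32 and 10.44 in water and 10.88, 10.69 and 10.73 in phenformin (0.48 ± 0.11, adjusted p = 0.122). Tpp1, a peptidase, differed by 0.49 ± 0.13 (adjusted p = 0.172) and Ctsh, a cathepsin, by 0.44 ± 0.11 (adjusted p = 0.139). All 28 were above background in all 6 arrays. In the fit whose spread follows the level 4 of them rose. Gm2a, the activator protein for ganglioside breakdown in the lysosome and not one of the 28, was called. It read 8.90, 9.18 and 9.36 against 10.18, 10.01 and 10.03 (0.92 ± 0.15, 1.90-fold, adjusted p = 0.0326). The call of Gm2a was kept in 1 of the 6 fits without 1 array.

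The factors TFEB and TFE3 bind the E-box CACGTG in promoters of lysosomal genes. It stood in 7 of 28 promoters of the list (25.0%) and in 6.88% of all promoters. Shown are 3 genes whose groups were apart (Gaa, Ctsa and Atp6v1a) and 2 whose groups were not (Lamp1 and Mcoln1), with each E-box in capitals; the windows were chr11:119267793-119267858 (plus strand) for Gaa, chr2:164833731-164833772 (plus strand) for Ctsa, chr16:44139355-44139420 (minus strand) for Atp6v1a, chr8:13159086-13159151 (plus strand) for Lamp1 and chr8:3500418-3500483 (plus strand) for Mcoln1.
Gaa: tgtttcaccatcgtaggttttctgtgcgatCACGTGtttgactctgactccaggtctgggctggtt
Ctsa: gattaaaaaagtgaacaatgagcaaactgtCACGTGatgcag
Atp6v1a: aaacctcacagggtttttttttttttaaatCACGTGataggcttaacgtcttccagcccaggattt
Lamp1: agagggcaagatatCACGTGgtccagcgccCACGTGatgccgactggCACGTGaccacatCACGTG
Mcoln1: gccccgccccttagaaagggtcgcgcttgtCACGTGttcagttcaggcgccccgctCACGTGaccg
Ctsa differed by 0.33 (adjusted p = 0.36), Atp6v1a by 0.27 (adjusted p = 0.343) and Lamp1 by 0.04. Mcoln1, a calcium channel of the lysosome, had -0.42 ± 0.23: it read 10.23, 10.17 and 9.51 in water and 9.54, 9.49 and 9.63 in phenformin, so that water replicate 3 alone lay among the phenformin arrays.

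Cyp39a1, which hydroxylates oxysterols on the way to bile acids, read 7.72, 8.05 and 7.96 in water and 8.97, 8.68 and 8.71 in phenformin (0.88 ± 0.15, 1.84-fold, adjusted p = 0.0397). It was above background in 2 of the 3 water arrays, and its call was lost in each of the 6 fits without 1 array. Sult2b1, which sulfates cholesterol, rose 1.5-fold (0.59 ± 0.10, adjusted p = 0.0432), from 8.82, 8.66 and 8.96 to 9.40, 9.38 and 9.42. Slc44a3, a choline transporter-like protein, rose by 0.93 ± 0.16 within background (adjusted p = 0.0397). Pltp, the phospholipid transfer protein, read 7.74, 7.84 and 8.58 in water and 9.27, 9.31 and 9.05 in phenformin. Its difference of 1.16 ± 0.22 was the larger, yet did not pass (adjusted p = 0.0533), with water replicate 3 well above the other water arrays.

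Dgka, a kinase that turns diacylglycerol into phosphatidic acid, read 7.92, 8.02 and 8.0 in water and 8.86, 8.71 and 8.53 in phenformin (1.64-fold, adjusted p = 0.0397), a call lost in each of those 6 fits. Vnn1, a pantetheinase, rose 1.70-fold (0.76 ± 0.12, adjusted p = 0.0303) and Adh7, an alcohol and retinol dehydrogenase, 1.52-fold (0.60 ± 0.11, adjusted p = 0.0397). Of 22 phospholipid and choline genes 1 was called, and of 14 bile acid and oxysterol enzymes 1.

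Reep6, which shapes the endoplasmic reticulum, read 9.63, 9.79 and 10.04 in water and 10.76, 10.81 and 10.84 in phenformin, and was the brightest of the genes that rose. It rose 1.97-fold (0.98 ± 0.13, adjusted p = 0.00674, passing in 4 of 6 fits without 1 array). Hid1, which acts in the sorting of secretory vesicles, rose 1.79-fold (0.84 ± 0.12, adjusted p = 0.0108), from 7.75, 8.0 and 8.06 to 8.87, 8.75 and 8.71, with 2 of the 3 water arrays above background. Gcnt3, a branching enzyme of mucin sugars, rose 1.90-fold (0.92 ± 0.15, adjusted p = 0.0271) and was the 1 call among 26 mucins and their glycosyltransferases. Its values were 8.12, 8.42 and 8.67 against 9.35, 9.35 and 9.28.

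Cdsn, corneodesmosin of the cornified skin layer, read 7.44, 7.66 and 7.53 in water and 8.74, 8.61 and 8.57 in phenformin. It rose by 1.10 ± 0.14 (adjusted p = 0.00632), at least 1.76-fold, and passed in 5 of 6 fits without 1 array. The other 24 measured genes of the cornified envelope were not called, and the list's median was -0.05.

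Dbp, a transcription factor driven by the circadian clock, rose 1.66-fold (0.73 ± 0.13, adjusted p = 0.0456), from 9.04, 9.36 and 9.47 to 10.17, 10.05 and 9.86. It was the 1 call among 19 clock genes. Arntl, the clock's activator BMAL1, had 0.61 (adjusted p = 0.131) and Nr1d1, its repressor, 0.14 ± 0.16. Castor1, the arginine sensor upstream of mTORC1, rose by 0.68 ± 0.12 within background (adjusted p = 0.0432), the 1 call among 23 genes of AMPK and mTORC1. Prkaa2, a catalytic subunit of AMPK, had 0.57 (adjusted p = 0.087).

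Of the other called genes, Mapre3, a protein of growing microtubule ends, rose by 0.72 ± 0.12, at least 1.20-fold (adjusted p = 0.0361). Ablim1, an actin-binding protein, and Ttc12, of cilia, were named after their values were seen, and rose 1.57-fold and 1.62-fold (adjusted p = 0.0354 and 0.0456). Car6, a secreted carbonic anhydrase, Sh2d4a, an adaptor, Zbtb7c, a zinc finger protein, and Psg17, of a family of near-identical glycoproteins, rose by 1.07, 0.97, 0.87 and 0.73 within background. Sox2, a stem cell transcription factor, and Gm5127, a predicted gene, fell by 0.65 and 0.79 within background. A further gene that fell, Mcpt8, is listed with the leukocyte markers below. Background values carry little signal, so 10 of the 38 calls have no fold.

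The genes of the respiratory chain, which phenformin acts on as a protein complex in mitochondria, held no call at the RNA level. Of 35 measured subunits of complex I 0 were called and the median was 0.04. In 4 of them (11.4%) the phenformin arrays lay all above and in 2 (5.71%) all below, near the shares over all genes. Ndufs3, a core subunit, had the most negative difference, -0.35 ± 0.15 (adjusted p = 0.38). Complexes II to IV had 0 calls of 26 and a median of -0.08, ATP synthase 0 of 16 and 0.02, and the tricarboxylic acid cycle 0 of 20 and -0.01. Of 13 measured PGC-1 coactivators and partners 0 were called, with a median of 0.02. Chchd10, a mitochondrial stress protein, read 9.17, 9.17 and 9.76 in water and 10.36, 10.40 and 10.22 in phenformin (0.96 ± 0.19, adjusted p = 0.0732). Organic cation transporters, which carry biguanides, were within background in all 8 measured members.

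Genes of DNA replication had a median of -0.17. Of 38 measured 0 were called, 14 lay all below (36.8%) and 0 all above. Gins2, of the replicative helicase, read 8.93, 8.97 and 8.92 in water and 8.53, 8.48 and 8.68 in phenformin (-0.37 ± 0.10, adjusted p = 0.172). Mcm2, another helicase subunit, had -0.27 ± 0.11 (adjusted p = 0.372). Genes of mitosis had 0 calls of 27 and a median of 0.02. The control line had a median of 0.03 for the replication genes. For the stress response targets its median was 0.26, against 0.14 in the PGC-1alpha explants. For the unfolded protein response it was 0.21 against 0.07, for the lysosome list 0.20 against 0.15, and for glutathione transferases 0.31 against 0.37. The difference between the lines was not tested for any list. Cytosolic ribosomal proteins (0 of 44), mitochondrial ribosomal proteins (0 of 74), hypoxia targets (0 of 21), p53 targets (0 of 18), interferon genes (0 of 33) and outputs of ERK (0 of 28) had no call, with medians from -0.07 to 0.09.

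Markers of other cells that a lung explant could hold were mostly at background. In bulk RNA, fewer cells of a type and less RNA per cell cannot be told apart. None of the 15 measured fibroblast and mural markers was above background in any array; their mean level was 5.22 to 5.37 in water and 5.14 to 5.29 in phenformin, and Col1a1 read from 7.42 to 7.76. Of 18 leukocyte markers 15 were never above background, among them Ptprc (5.12 to 5.52), and the mean level was 5.96 to 6.07 in water and 5.81 to 5.93 in phenformin. Of 14 endothelial markers 11 were never above background, among them Pecam1 (4.97 to 5.37), with mean levels of 5.99 to 6.18 and 6.08 to 6.16. Of 15 lung epithelial markers 13 were never above background, with mean levels of 5.95 to 6.18 and 6.0 to 6.10, and Sftpc, surfactant protein C, read from 4.45 to 4.85.

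Of these markers 1 was called. Mcpt8, a protease of basophils, read 9.09, 9.05 and 9.03 in water and 8.27, 8.46 and 8.43 in phenformin, and fell by 0.67 ± 0.12 (1.59-fold, adjusted p = 0.0432). Its call was lost in each of the 6 fits without 1 array. Selp, the adhesion protein P-selectin listed with the endothelial markers, read 8.55, 8.45 and 9.45 in water and 10.30, 10.16 and 10.20 in phenformin. Its difference of 1.40 ± 0.28 did not pass (adjusted p = 0.075), with water replicate 3 high among the water arrays.

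The control line was set beside the PGC-1alpha explants to see which changes were shared. The 2 comparisons use no array in common, although 1 estimate of each gene's spread served both. The gap between positive and negative controls also split by treatment in the control line. It was 4.219 to 4.309 in water and 3.996 to 4.068 in phenformin, so gap and treatment cannot be told apart there either. Agreement between the lines therefore does not separate them, and whether the gap contributed to shared changes was not tested. In the control line 234 genes were called, or 1.2% of all genes. Of the 38 genes called in the PGC-1alpha explants, 26 were also called in the control line in the same direction, 20 higher and 6 lower, and 0 in the opposite direction. These 26 are 68.4% of the calls in the PGC-1alpha explants and 11.1% of those in the control line. All 38 had the same sign there.

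Cth differed by 1.32 ± 0.11 in the control line (adjusted p = 0.000268), Dll4 by -1.20 ± 0.21 (adjusted p = 0.0164) and Txnip by -0.97 ± 0.16 (adjusted p = 0.0148). Cyp51 and Insig1 had differences of -0.88 ± 0.13 and -0.80 ± 0.10 there. Fn1 had -0.54 ± 0.15 there (adjusted p = 0.0994), Nes -0.36 ± 0.11 (adjusted p = 0.134), Plau -0.23 ± 0.14 (adjusted p = 0.424) and Mcpt8 -0.17 ± 0.12 (adjusted p = 0.503). The 38 genes were chosen by their values in the PGC-1alpha explants, which by itself favours larger differences there.

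**Figure D5:**
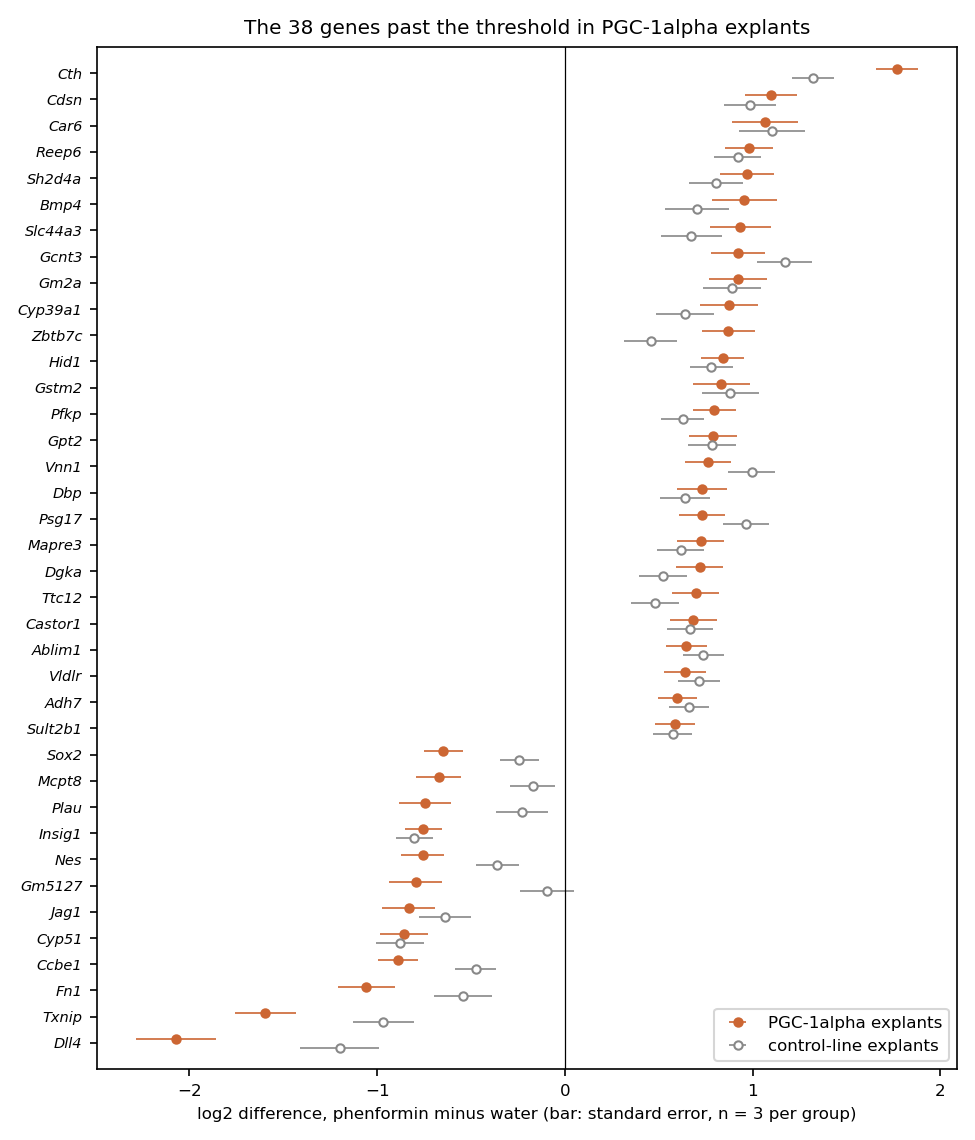
Log2 differences, phenformin minus water, of the 38 genes called in the PGC-1alpha explants (filled orange), with the same genes in the control line (open grey) and bars for the standard error (n = 3 per group). All 38 pairs lie on the same side of 0, some farther out in one line (Fn1 at -1.06 and -0.54) and some in the other (Gcnt3 at 0.92 and 1.17), with no difference between the lines past the threshold.

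No difference between the responses of the lines passed limma's test. Of 19505 genes 0 were called for the difference of responses (0.0%), with 1018 at an unadjusted p under 0.05 and a smallest adjusted p of 0.164. With the spread following the level 3 were called, and with replicate number as a block 1. Among the 38 genes, 10 had an unadjusted p under 0.05 for the difference, 9 falls and 1 rise, and their smallest adjusted p was 0.928; the choice of these genes favours such differences. For Dll4 the responses differed by -0.87 ± 0.30 (unadjusted p = 0.0114), for Txnip by -0.63 ± 0.23, for Fn1 by -0.52 ± 0.22 and for Cth by 0.45 ± 0.16. None of the 38 changes was shown to be particular to the PGC-1alpha explants.

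The genes with the smallest p for the difference of responses were not among the 38. Akr1c18, an aldo-keto reductase that breaks down progesterone, read 6.87, 6.84 and 7.48 in water and 6.32, 6.30 and 6.65 in phenformin, within background, against control-line means of 5.82 and 6.92 (difference of responses -1.74 ± 0.27, adjusted p = 0.164). Mal, a membrane raft protein, read 7.51, 7.87 and 7.96 against 7.73, 7.86 and 7.64, so that its groups overlapped. In the control line its mean was 8.65 in water and 9.80 in phenformin (difference of responses -1.18 ± 0.19, adjusted p = 0.164). Clic3, a chloride channel protein, was within background in the PGC-1alpha arrays, with a difference of -0.28 against 1.24 in the control line (adjusted p = 0.164 for the difference).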

How the data were processed

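Total RNA of 12 explant samples was measured on Affymetrix Clariom S mouse arrays, as read from the probe set names. The authors' deposited value table holds 28815 probe sets, with values from 1.50 to 13.65 read here as log2. Their background correction and normalization, like the base of the logarithm, are not given in the sources consulted. The log2 scale was inferred from the range, and with another base each difference would scale. A second deposited table was not used, since its 12 value columns have names matching none of the labels. Group and replicate were read from the sample titles.

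Gene symbols are those of the platform annotation, checked by Entrez identifier against RefSeq. All 19572 named probe sets matched, and 2634 transcript clusters without a symbol were not analysed here. For 55 genes with several probe sets the one with the highest mean over 12 arrays was kept, which left 19505 genes with no filter on level. Detection calls are not part of the table, and background was set at the 95th percentile of 5222 negative controls, a strict limit because such probe sets carry signal of their own: 34.6% to 38.3% of genes exceeded it per array. The number of arrays limits the precision.

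The model, run in limma 3.58.1 (lmFit, then eBayes; R 4.3.3), held 4 group means for each gene over 12 arrays, with 8 residual and 5.84 prior degrees of freedom. All tests were two-sided, and p-values were adjusted over 19505 genes by Benjamini-Hochberg, with 0.05 as the threshold. The contrasts were the phenformin effect in either line and the gap between both effects. On simulated data of the same size with independent noise, 22% of genes changed by 0.5 and 96% of those changed by 1 were called. The shares were 98% for changes of 1.5 and 100% for changes of 2 (50 genes each), with 10 false calls. The simulated noise held no shift of a whole array, so these shares need not hold for the real arrays. There, differences of 1.16 (Pltp) and 1.40 (Selp) did not pass.

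The genes and the 58 gene lists were chosen with earlier results of these data known. Lists are described by counts and medians, with no test of a list. Genes are named where they are Ppargc1a, among the 20 largest called rises or falls, among the 8 brightest or the 10 with the smallest p of the called genes per direction, members of a list, or among the 10 with the smallest p for the difference of responses. In the PGC-1alpha line, same-numbered samples correlated at -0.01 to 0.05 in their deviations from the group means. In the control line they correlated at 0.03, -0.27 and -0.37, and differently numbered samples there at -0.12 to 0.36. Same-numbered samples thus did not correlate positively beyond 0.05 in either line, and the numbers were not taken to pair them. Promoters came from RefSeq's GRCm38.p6, where 27 of the 38 called genes had one. Alternatives were a replicate block, quantile normalization, filters on level, the mean of probe sets, limma's trend and robust options, the control gap as a covariate, the 6 arrays alone and each array left out.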

Additional observations from a re-analysis of the deposited data

How the results depend on the processing

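The count of 38 genes called in the PGC-1alpha explants was unchanged with the mean of probe sets, but moved under most other settings. It was 62 after quantile normalization, 187 among genes above the median level, 241 among genes above the negative control percentile, 250 with limma's trend and robust options, 15 with the 6 arrays alone and 1 with the control gap as a covariate. The 2 filters test fewer genes, and they kept 33 and 26 of the 38. Leaving out 1 array gave 3 to 77 calls, and 57 without control-line water replicate 2, an alternative chosen after seeing the data, as were the fits that leave out control-line arrays. With replicate number as a block, which the numbers do not justify as a pairing, 3 genes were called, 1 higher and 2 lower.

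The 234 calls in the control line became 10 with the replicate block, 637 and 586 with the level filters, 666 with trend and robust and 0 with the gap covariate (limma, 1648 at an unadjusted p under 0.05), and 21 to 601 without 1 array. Quantile normalization gave 115 higher and 59 lower there, against 179 and 55. The 0 calls for the difference of responses became 1 with the block, 1 above the negative control percentile, 3 with trend and robust and 0 to 1 without 1 array. The 36 named genes that were called gave 523 values under alternatives, of which 283 kept the call, 240 lost it and 0 reversed. The 11 named genes that were not called gave 150 values, of which 4 passed, 3 of Aldh3a1 and 1 of Adamts15. The medians of the 58 lists were taken again under each alternative. Of all these values, 13 moved by at least the median standard error of the list's members. The cause of these shifts was not tested. With 3 arrays a group, changes near 0.5 on the log2 scale were mostly below what the test calls.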

Other observations

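Lists not described above held few calls. Of 19 genes of glutathione turnover 1 rose, Cth, with a list median of -0.08, and of 25 pericellular proteases and inhibitors 1 fell, Plau, with a median of -0.06. No gene was called among 15 complex I assembly factors, 16 ErbB receptors and ligands, 25 targets of YAP and SRF, 18 TGF-beta ligands, receptors and targets, 15 keratins, 18 integrins, 16 milk and mammary differentiation genes, 19 heat shock proteins, 31 NF-kB targets and chemokines and 10 genes of mammary epithelial identity. Their medians lay between -0.09 and 0.10, beside -0.02 over all genes. Csn3, the milk protein kappa-casein, read 7.95, 8.25 and 8.36 in water and 9.15, 8.83 and 8.83 in phenformin, with groups apart and a difference of 0.75 ± 0.17 (adjusted p = 0.0995). Krt19, a keratin of simple epithelia, read from 10.37 at the lowest in water, where all arrays lay below those in phenformin, to 11.44 at the highest in phenformin, a difference of 0.56 ± 0.15 (adjusted p = 0.158).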
